A study of Mus musculus with 16 samples.

Results

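Fkbp5, Tsc22d3, Zbtb16, Klf9, Klf15, Mt1, Mt2, Hsd11b1 and Errfi1 are genes known to respond to glucocorticoids, and their transcript levels were followed here in the liver and kidney of mice under chronic jet lag (CJL). They were taken by symbol from the deposited tables and they are 9 of the 32989 genes listed. All 9 passed the filter on low values in both organs. On the GRCm38/mm10 build of the files, Fkbp5 lies at chr17:28398753-28486149, Tsc22d3 at chrX:140539528-140600522, Zbtb16 at chr9:48654297-48835945, Klf9 at chr19:23141226-23166911, Klf15 at chr6:90462626-90475209. Mt2 and Mt1 lie side by side at chr8:94172618-94173567 and chr8:94179089-94180327, and Hsd11b1 and Errfi1 lie at chr1:193221640-193264045 and chr4:150855091-150868880. FPKM were counted over all exons of each gene. The mice were male C57BL/6J animals without a genetic modification, aged 97 weeks, that had spent 85 weeks under 1 of the light schedules. The LD condition (mice L63, L65, L86, L104) had a light period from 8:00 to 20:00, and the ADV condition (mice A75, A91, A94, A115) had its schedule advanced by 8 h every 4 days. Each of the 8 mice gave 1 liver and 1 kidney library, and the animals had been housed in groups and were picked for showing no apparent weakness or injury.

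Glucocorticoids, corticosterone in the mouse, are released by the adrenal cortex with a daily rhythm and under stress. Inside a cell the hormone binds the glucocorticoid receptor, which is held ready by heat shock chaperones, moves to the nucleus and switches on target genes at glucocorticoid response elements. In the liver these targets take part in gluconeogenesis and in the answer to fasting and inflammation, and several of them are also read out by the circadian clock. The hormone itself was not among the measurements, so that the levels below are of transcripts only.

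The libraries were poly(A)-enriched and stranded, and 21092501 to 24285055 fragments of a liver library and 15688495 to 18043306 of a kidney library fell on the listed genes, or 91.2% to 92.9% of its total. Values are FPKM, in which the fragments on a gene are divided by its exon length and by the total of its library. Because these are bulk samples, fewer cells of a type and less RNA per cell cannot be told apart. The kidney of A115 stood apart from the other 7 kidneys. Its mean correlation with them across genes was 0.947, against 0.973 to 0.984 for the others, mitochondrial genes took 33.8% of its fragments against 9.43% to 18.02%, and the summed level of 7 kidney epithelium markers was 1378 FPKM against 2829 to 4313 FPKM. The liver of A94 was the least similar of the livers, with a mean correlation of 0.976 against 0.988 to 0.990. Sequencing had been done by a pair of providers on different instruments, and which library came from which was not given in the sources used here. Whether a sequencing batch went with the light condition, with the organ or with neither can therefore not be told.

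The promoter windows of 4 members are shown for the motifs of the metal and the clock arm of their regulation. RefSeq start sites of GRCm38.p6 gave a window for 8 of the 9 members, and Zbtb16 had none. In the 250 bases before the start, both strands were searched for the palindromic glucocorticoid response element (the half-site AGAACA and, after 3 free bases, its reverse complement), the half-site alone, the letters TGCNCNC, which hold the core of the metal response element, and the E-box CACGTG, which CLOCK and BMAL1 bind. The full glucocorticoid element was in 0 of the members' windows and in 0.00922% of the 32536 distinct windows of the table, and the half-site, which is part of the full element, in 16.03% of them. Among the members the half-site was in 1 window of Tsc22d3. The letters TGCNCNC occurred 5 times before Mt2 and once before Mt1. At least 1 match was in 44.7% of all windows, as in windows of Fkbp5, Klf15, Hsd11b1, Errfi1 and Tsc22d3, and 4.68% of all windows held 3 or more. The E-box occurred in the windows of Klf15, where it was found 2 times, and Fkbp5, and in 6.04% of all windows. In both, a TGCNCNC match overlapped an E-box. A match is a string of letters and was not measured as a binding site. The stretches below run 5′ to 3′ on the gene's strand, with the TGCNCNC matches of Mt1 and Mt2 and the E-boxes of Fkbp5 and Klf15 in capitals. They lie at chr8:94179055-94179084 (plus strand), chr8:94172368-94172617 (plus strand), chr17:28486150-28486399 (minus strand) and chr6:90462326-90462575 (plus strand). The stretch before Mt1 is short because annotated transcripts start inside its window, and an antisense exon of Gm45774 covers that of Mt2.
Mt1: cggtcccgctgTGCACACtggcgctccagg
Mt2: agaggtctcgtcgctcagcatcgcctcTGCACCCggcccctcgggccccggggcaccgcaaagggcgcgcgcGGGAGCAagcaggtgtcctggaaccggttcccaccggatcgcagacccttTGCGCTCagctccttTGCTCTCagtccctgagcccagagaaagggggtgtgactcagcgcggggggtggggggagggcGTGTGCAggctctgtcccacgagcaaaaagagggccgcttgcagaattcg
Fkbp5: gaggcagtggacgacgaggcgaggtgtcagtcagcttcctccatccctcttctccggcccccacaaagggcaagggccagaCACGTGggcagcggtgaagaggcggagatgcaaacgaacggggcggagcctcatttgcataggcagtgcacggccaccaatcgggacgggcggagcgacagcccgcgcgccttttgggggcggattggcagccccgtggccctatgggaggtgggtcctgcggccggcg
Klf15: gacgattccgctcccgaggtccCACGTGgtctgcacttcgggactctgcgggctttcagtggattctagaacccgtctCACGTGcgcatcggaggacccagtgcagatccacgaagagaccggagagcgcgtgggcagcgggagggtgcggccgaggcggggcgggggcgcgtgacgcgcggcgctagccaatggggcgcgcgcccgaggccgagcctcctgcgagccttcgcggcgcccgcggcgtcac

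ADV-conditioning was compared with the LD condition in each organ to ask whether 85 weeks of phase advances left glucocorticoid-responsive genes at another level. In neither organ did any of the 9 genes pass the test. By limma with Benjamini-Hochberg adjustment over all genes tested, 0 of 9 had an adjusted p under 0.05 in the liver, where 0.00779% of the 12835 genes tested passed, and 0 of 9 in the kidney, where 0.00% of 14452 passed. limma-voom on the recovered fragments also called 0 of 9 in each organ. At an unadjusted p under 0.05, 1 of 9 members, Zbtb16, passed in the liver against 11.8% of all genes, and 0 of 9 in the kidney against 3.10%. The 4 LD and 4 ADV values overlapped for every member in both organs, whereas they did not overlap for 8.84% of the genes in the liver and 2.80% in the kidney. By mean log2 value 4 members were higher and 5 lower in the ADV mice of each organ, and the members had a median log2 fold change of −0.05 (liver) and −0.01 (kidney), beside 0.10 and −0.02 for all genes tested. With 4 mice against 4, the smallest two-sided p of the exact permutation test is 0.029, and the smallest value among the members was 0.114 (liver) and 0.0857 (kidney).

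**Figure D1:**
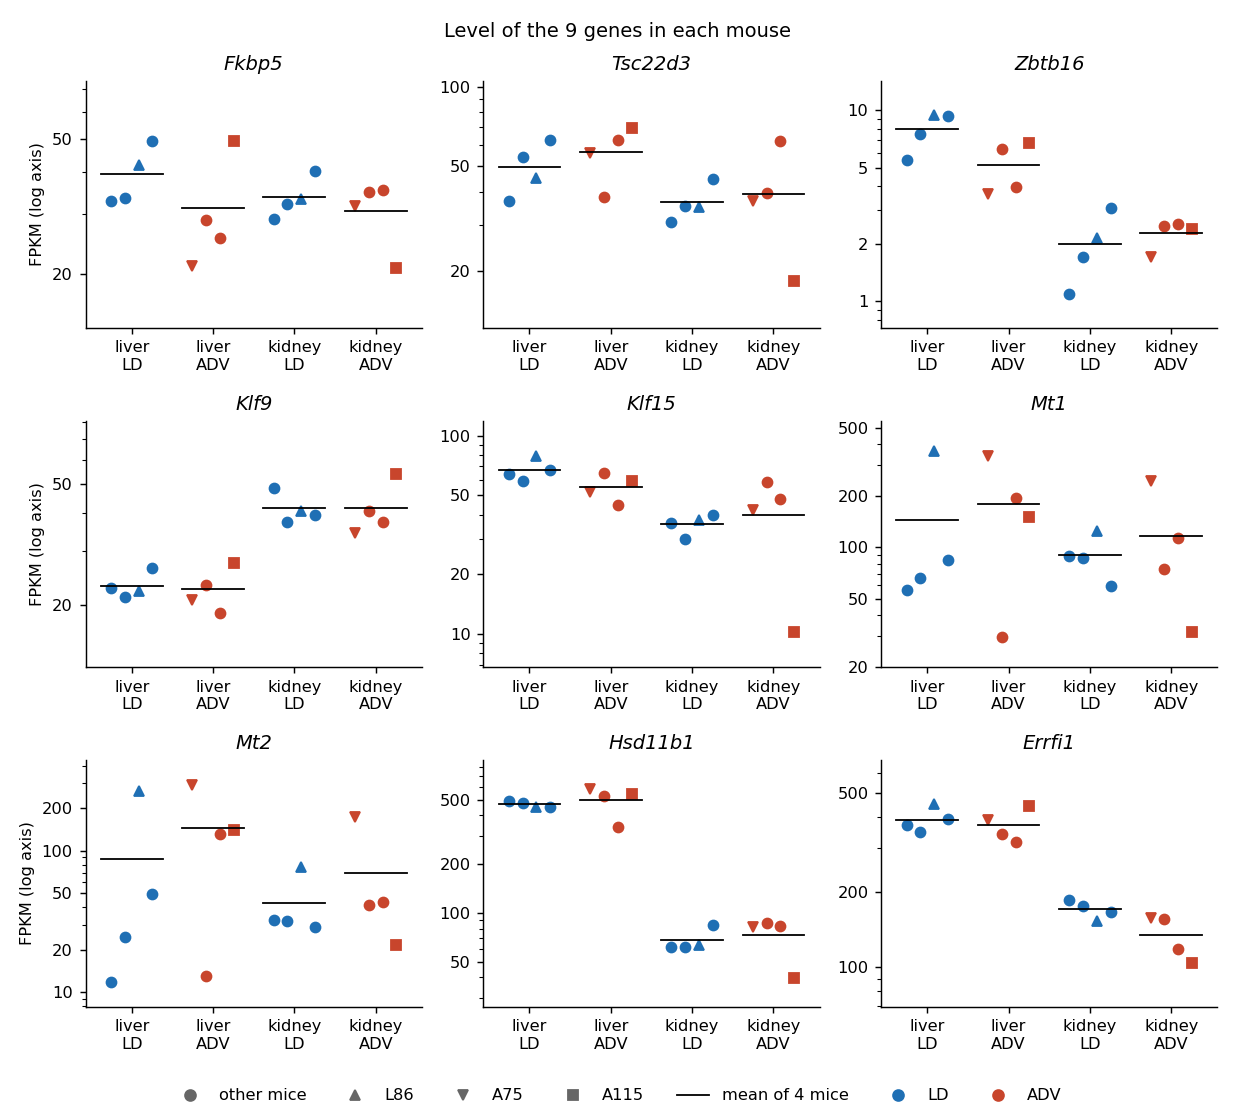
FPKM of the 9 genes (log axis) in each mouse, by organ and light condition, with the mean of 4 mice as a line. The 4 LD and 4 ADV points overlap in every panel and organ, Mt1 and Mt2 are highest in L86 (upright triangle) among the LD mice and in A75 (inverted triangle) among the ADV mice of each organ, and the kidney of A115 (square) is lowest for 7 of the 9 genes.

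Fkbp5 and Zbtb16, both strongly induced by the receptor, had lower mean levels in the ADV livers, without passing the test. Fkbp5 encodes a co-chaperone that lowers the receptor's affinity for the hormone. Its level was 32.7, 33.4, 41.9 and 49.2 FPKM in the livers of L63, L65, L86 and L104, and 21.1, 28.8, 25.4 and 49.3 FPKM in those of A75, A91, A94 and A115. Thus 3 ADV livers lay below every LD liver and A115 lay at the top of both groups. The log2 fold change was −0.39 with an SE (standard error) of 0.25. By limma the adjusted p was 0.518, and the exact permutation test gave p = 0.257. With each mouse left out in turn, the change ran from −0.63, without A115, to −0.23. In the kidney Fkbp5 was 33.6 ± 4.69 FPKM (SD, n = 4) in the LD and 30.7 ± 6.75 FPKM (SD, n = 4) in the ADV condition, and A115, with 20.8 FPKM, was the only ADV kidney below the LD kidneys. The log2 fold change there was −0.15, and 0.024 without A115.

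Zbtb16 encodes the zinc finger repressor PLZF. In the LD livers its level was 5.51, 7.52, 9.47 and 9.27 FPKM, and in the ADV livers it was 3.66, 6.24, 3.97 and 6.76 FPKM, in the same order of mice. Only A75 and A94 were below the lowest LD liver. This gave the largest of the members' decreases in the liver, with a log2 change of −0.63 (SE 0.24, unadjusted p = 0.0273 and adjusted p = 0.385 by limma). In the kidney Zbtb16 was low in both conditions. It was 1.10, 1.71, 2.15 and 3.08 FPKM in the LD mice and 1.71, 2.47, 2.55 and 2.38 FPKM in the ADV mice. All ADV kidneys thus lay within the LD range. The log2 fold change was 0.24 (SE 0.32), and it ran from 0.0014 to 0.47 with each mouse left out.

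Tsc22d3 encodes GILZ, a leucine zipper protein that carries part of the anti-inflammatory effect of glucocorticoids. Its level was 49.7 ± 11.1 FPKM in the LD and 56.7 ± 13.6 FPKM in the ADV livers (SD, n = 4 each). The log2 change was 0.18 (SE 0.21), and from 0.049 to 0.36 with each mouse left out. In the kidney the LD mice ranged from 30.7 to 44.5 FPKM, while A75, A91, A94 and A115 had 37.0, 39.5, 62.1 and 18.4 FPKM. The highest and the lowest kidney were thus both of the ADV condition, and the change was −0.01 (log2, SE 0.34), or 0.32 without A115.

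Klf9 and Klf15 encode Krüppel-like transcription factors that glucocorticoids induce, Klf15 with a known part in gluconeogenesis and amino acid breakdown. Klf9 was among the steadier members. It was 23.2 ± 2.24 FPKM in the LD and 22.6 ± 3.77 FPKM in the ADV livers (SD, n = 4 each), and 41.5 ± 4.73 FPKM in the LD kidneys and 41.6 ± 8.48 FPKM in the ADV kidneys (SD, n = 4 each), with log2 fold changes of −0.05 (SE 0.13) and −0.01 (SE 0.17). Klf15 was 64.3, 59.1, 79.5 and 66.9 FPKM in the LD livers and 52.2, 64.9, 45.0 and 59.0 FPKM in the ADV livers, so that 3 ADV livers were below every LD liver and A91 was within the LD range. The change was −0.29 (log2, SE 0.14), for which limma gave an adjusted p of 0.439 and the exact permutation test p = 0.114. In the kidney Klf15 was 36.3, 30.3, 37.7 and 40.0 FPKM in the LD mice and 42.2, 58.6 and 47.8 FPKM in A75, A91 and A94, each above every LD kidney, but 10.2 FPKM in A115. With all mice the log2 fold change was −0.11 (SE 0.51, adjusted p = 0.9999 by limma). Without A115 it was 0.45 (SE 0.14, adjusted p = 0.0531 by limma, the lowest of its alternatives, which ran up to 0.9999), and 0.25 (adjusted p = 0.280 by limma) when the libraries were also scaled by the median ratio.

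Metallothioneins bind zinc and copper, and Mt1 and Mt2 are induced by glucocorticoids, by metals and by inflammatory signals. In the liver they were by far the most variable members, and mice of the same condition differed widely. Mt1 was 56.4, 66.0, 366.0 and 84.0 FPKM in the livers of L63, L65, L86 and L104. In those of A75, A91, A94 and A115 it was 340.6, 29.8, 194.7 and 149.8 FPKM. Mt2 followed the same mice, with 11.9, 24.8, 263.8 and 49.7 FPKM in the LD livers and 291.5, 12.98, 131.4 and 140.0 FPKM in the ADV livers. The highest LD liver, L86, was thus near the highest ADV liver, A75, and the lowest ADV liver, A91, was near the lowest LD liver. The highest liver exceeded the lowest 22.2-fold within the LD and 22.5-fold within the ADV condition for Mt2. Log2 fold changes between the conditions were 0.34 (SE 0.78) for Mt1 and 1.04 (SE 1.09) for Mt2, with adjusted p = 0.863 and 0.675 by limma. The value of Mt1 turned to −0.12 without A75 and rose to 0.95 without L86 and 1.05 without A91, and that of Mt2 ran from 0.41 without L63 to 1.98 without A91. Mt2 overlaps exons of Gm45774 on the opposite strand, and whether the counting used the strand was not given in the sources used here.

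The same mice stood out in the kidney. Mt1 was 88.8, 86.8, 124.4 and 59.2 FPKM in the LD kidneys and 245.0, 74.3, 113.2 and 31.9 FPKM in the ADV kidneys. Mt2 was 32.3, 31.9, 77.2 and 29.0 FPKM in the LD and 172.8, 41.5, 43.6 and 21.7 FPKM in the ADV kidneys. L86 was the highest LD mouse and A75 the highest ADV mouse in each organ for each of these genes. The log2 fold changes in the kidney were 0.05 (SE 0.57) for Mt1 and 0.39 (SE 0.62) for Mt2, and without A115 they were 0.55 and 0.80, and without A75 −0.43 and −0.20. Within groups the SD of Mt2 in the liver on the log2 scale was 1.92 and that of Mt1 was 1.38, beside a median of 0.244 over all genes tested, which put them at the 99.8 and 99.2 percentile. The other members lay between the 32.1 percentile for Errfi1 and the 79.2 percentile for Fkbp5. In the kidney the SD was 1.004 for Mt2, 0.920 for Mt1 and 0.818 for Klf15, at the 86.3, 82.8 and 77.9 percentile. The ratio of Mt1 to Mt2 in the liver was 4.74 in L63, a mouse low in both, 1.39 in L86 and 1.17 in A75.

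Acute phase genes, which the liver makes more of during inflammation, were high in the mice that were high in Mt1 and Mt2. The 11 genes of this list summed to 7394, 7692, 11184 and 7995 FPKM in the LD livers and to 16934, 7507, 15704 and 11965 FPKM in the ADV livers, so that L86 was the highest LD liver and A91 the lowest ADV liver here too. L86 had the highest level of the LD livers in 10 of the 11 genes. Saa1, an acute phase apolipoprotein, was 173 FPKM in L86 against 32.4 to 78.4 FPKM in the other LD livers, and 444.04 FPKM in A75. Leukocyte markers were also highest of the LD mice in L86, with a sum of 118 FPKM in its liver against 70.05 to 82.9 FPKM, and 165 FPKM in its kidney against 55.8 to 74.2 FPKM. The kidney of A115, lowest in Mt1 and Mt2, had an acute phase sum of 149 FPKM, of which the fibrinogen chain Fgg made up 138.4 FPKM. The part of inflammation or of infiltrating cells in the levels of Mt1 and Mt2 was not tested.

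**Figure D2:**
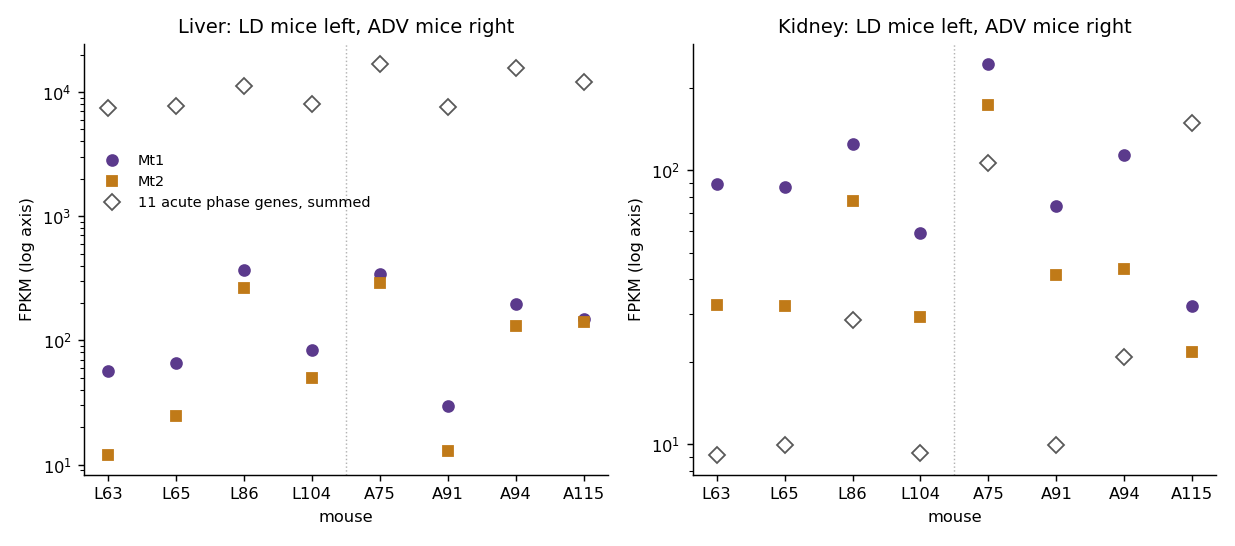
FPKM (log axis) of Mt1, Mt2 and the sum of 11 acute phase genes in each mouse, liver on the left and kidney on the right, with LD mice before and ADV mice after the dotted line. In the liver L86, A75, A94 and A115 are high in all 3 readouts and A91 is as low as the other LD mice, and in the kidney A115 is low in Mt1 and Mt2 and has a high acute phase sum, of which Fgg alone made up 138.4 of 149 FPKM.

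Hsd11b1 encodes the enzyme that regenerates active corticosterone from its inactive 11-keto form inside the cell. It was 493.7, 480.3, 450.0 and 449.1 FPKM in the LD livers, with a coefficient of variation of 4.76%, and 585.5, 529.3, 340.3 and 545.1 FPKM in the ADV livers. Hence 3 ADV livers were above and A94 was below every LD liver, the spread was wider in the ADV group, and the log2 fold change was 0.07 (SE 0.17), or −0.020 without A75, 0.24 without A94 (SE 0.10, adjusted p = 0.298 by limma) and −0.037 under median ratio scaling. In the kidney the LD mice had 61.4, 61.9, 63.4 and 84.6 FPKM, and A75, A91, A94 and A115 had 82.0, 86.7, 82.8 and 39.6 FPKM. The log2 fold change was 0.05 (SE 0.27), and 0.32 (SE 0.12, adjusted p = 0.102 by limma) without A115.

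Errfi1 encodes MIG6, an inhibitor of the epidermal growth factor receptor. Its liver levels were 390.7 ± 44.2 FPKM (SD, n = 4) in the LD and 373.5 ± 55.6 FPKM (SD, n = 4) in the ADV condition. In the kidney it was 185.6, 176.4, 153.2 and 167.0 FPKM in the LD mice and 158.1, 155.5, 118.6 and 104.2 FPKM in the ADV mice, with A94 and A115 below and A75 and A91 within the LD range. This was the largest decrease among the members in the kidney, with a log2 change of −0.37 (SE 0.18), an unadjusted p of 0.0720 and an adjusted p of 0.9999 by limma, and p = 0.0857 in the exact permutation test. With the mouse as a replicate block its unadjusted p was 0.0424 and its adjusted p 0.908 by limma, and 1 of 9 members then passed unadjusted in the kidney, against 5.43% of all genes.

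**Figure D3:**
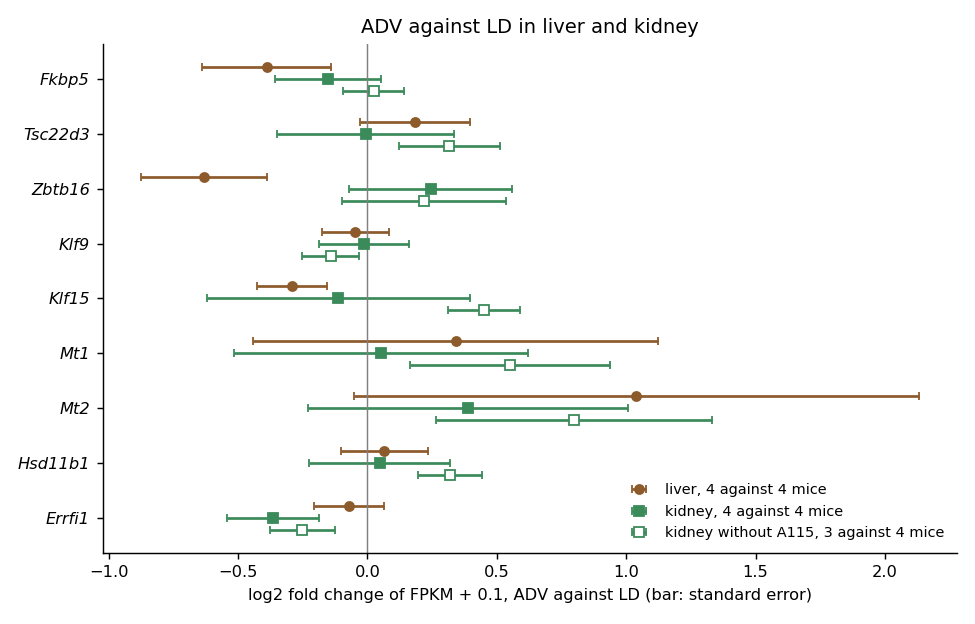
Log2 fold change of FPKM + 0.1, ADV against LD, with its SE for the 9 genes in the liver, in the kidney, and in the kidney without A115. The bars of Mt1 and Mt2 are the widest in the liver, and leaving out A115 moves Klf15 in the kidney from −0.11 to 0.45.

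The difference of the ADV effect between the organs was tested to ask whether any member answered in 1 organ and not in the other. By limma, 0 of 9 members had an adjusted p under 0.05, against 0.00% of the 12319 genes tested in both organs, 0 of 9 had an unadjusted p under 0.05, and limma-voom called 0 of 9. The kidney effect exceeded the liver effect by 0.88 (log2, SE 0.41, unadjusted p = 0.0513 and adjusted p = 0.9999 by limma) for Zbtb16. It differed from the liver effect by −0.65 (SE 1.40) for Mt2. Leaving out each mouse, this difference ran from 0.71 to 1.02 for Zbtb16 and from −1.49 to −0.037 for Mt2. With the mouse as a replicate block, since both organs came from the same animals, Zbtb16 had an unadjusted p of 0.00961 (SE 0.27) and an adjusted p of 0.9996 by limma, so that 1 of 9 members then passed unadjusted, against 3.16% of all genes. Leaving out A115 raised the genes called in the kidney from 0 to 2724 of the 14475 tested, 16.1% called higher and 2.68% lower. In the difference between the organs, the genes called rose from 0 to 458 of the 12316 tested. Of the members, 0 of 9 were called in either. The difference between the organs was then 0.78 for Klf15 (unadjusted p = 0.00298, adjusted p = 0.0595 by limma), 0.66 for Fkbp5 (unadjusted p = 0.0101, adjusted p = 0.0971 by limma) and 0.99 for Zbtb16 (unadjusted p = 0.0372, adjusted p = 0.185 by limma), so that 3 of 9 passed unadjusted, where 23.3% of all genes did.

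The level of each member was then compared between the organs over the 8 mice, to show where each gene is expressed. Hsd11b1 was the most liver-weighted, with 340.3 to 585.5 FPKM in the livers and 39.6 to 86.7 FPKM in the kidneys, a 6.997-fold difference. Folds between the organs are of the mean log2 values. Zbtb16 was 2.93-fold and Errfi1 2.53-fold higher in the liver, and each of these 3 genes was higher in the liver of 8 of 8 mice without overlap. Klf15 was 1.75-fold and Tsc22d3 1.44-fold higher in the liver, in 7 of 8 mice each. Klf9 went the other way, with 18.8 to 27.5 FPKM in the livers and 34.6 to 53.7 FPKM in the kidneys. It was higher in the kidney of 8 of 8 mice. Fkbp5, Mt1 and Mt2 did not differ beyond their spread, with log2 differences, liver minus kidney, of 0.10 (SE 0.17), 0.40 (SE 0.53) and 0.51 (SE 0.70).

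By limma with adjustment over all 14968 genes tested in either organ, 5 members were higher in the liver, against 13.2% of all genes, and 1 was higher in the kidney, against 61.9%. The values of the organs did not overlap for 4 members, against 43.5% of all genes. The adjusted p by limma was 5.90e-10 for Hsd11b1, 4.18e-08 for Errfi1, 4.41e-06 for Klf9, 6.38e-06 for Zbtb16, 0.0153 for Klf15 and 0.0363 for Tsc22d3. The call of Tsc22d3 was lost when L63, L65, L86, L104, A75 or A115 was left out (adjusted p 0.0510 to 0.0907 by limma), and its difference was 0.31 without A115. These directions rest on each library being divided by its own total. Whether a sequencing batch went with the organ was not given, so that it cannot be told apart from these differences. As deposited, the median gene was lower in the liver by a log2 difference of −0.75, and scaling by the median ratio moved that median to −0.03 and the calls over all genes to 31.0% higher in the liver and 34.6% higher in the kidney. Under that scaling 7 members were called higher in the liver, Fkbp5 (log2 difference 0.87) and Mt1 (1.17) with them, and Klf9 was no longer called, with −0.08 (SE 0.18, adjusted p = 0.703 by limma). Under quantile normalization, where the median gene was at 0.0053, Klf9 was still called higher in the kidney, with −0.49 (adjusted p = 0.0232 by limma).

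**Figure D4:**
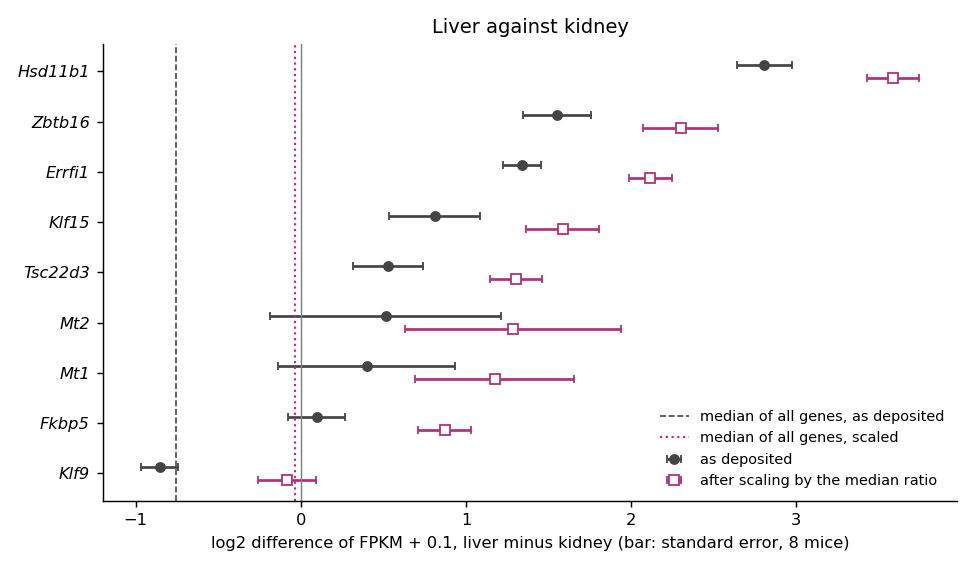
Log2 difference of FPKM + 0.1, liver minus kidney, with its SE for the 9 genes as deposited (filled circles) and after scaling by the median ratio (open squares), with the median of all genes under each as a vertical line. Hsd11b1, Zbtb16 and Errfi1 lie farthest to the liver side under both, and Klf9 lies next to the median gene under both.

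Liver and kidney of the same mouse share the hormone that circulates, so the members were also compared across the 8 mice. Of 9 relations, 0 passed after adjustment over the relations, and without A115 the r of Fkbp5, Tsc22d3 and Errfi1 changed sign. For Tsc22d3 r was −0.04 and rho 0.19 with all mice (exact permutation tests p = 0.920 and 0.665, adjusted p = 0.950 and 0.892) and r was −0.20 without L63 and A91, its farthest pair. Without A115 its r was 0.67 and its rho 0.79 (exact permutation tests p = 0.0825 and 0.0480, adjusted p = 0.248 and 0.312). For Errfi1 r was −0.17 with all mice and 0.36 without A115 (exact permutation tests p = 0.694 and 0.422). The r of Errfi1 was −0.62 without A94 (exact permutation test p = 0.121), −0.76 without A94 and L86, its farthest pair, and 0.55 under median ratio scaling. Klf9 had the closest relation, with Pearson's r = 0.67 (exact permutation test p = 0.0666, adjusted p = 0.600) and Spearman's rho = 0.76 (exact permutation test p = 0.0368, adjusted p = 0.331) over 8 mice. Without A94 and A115, the mice farthest from the median liver level, r was 0.33. Without A94 alone it was 0.67, and without A115 alone 0.40. After scaling by the median ratio, the rho of Klf9 was 0.90 (exact permutation test p = 0.00456, adjusted p = 0.0411), which passed, while its r was 0.62. For Mt2 r was 0.56 and rho 0.43, and for Mt1 r was 0.47 and rho 0.57 (exact permutation tests p = 0.153 and 0.299 for Mt2, p = 0.244 and 0.151 for Mt1, adjusted p = 0.687, 0.892, 0.731 and 0.680). Without A115 these were r = 0.76 for Mt2 and 0.77 for Mt1 over 7 mice (exact permutation tests p = 0.0234 and 0.0312, adjusted p = 0.140 for both). For Mt1 and Mt2, r was 0.47 and 0.67 without their farthest pair of mice among all 8. Without A115, L86 and A75 it was 0.51 for Mt1 and 0.25 for Mt2, and without A94, L86 and A75 it was −0.76 and −0.91.

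Fkbp5 gave, with all mice, r = −0.25 and rho = −0.12 (exact permutation tests p = 0.587 and 0.793, adjusted p = 0.881 and 0.892), and A115 had the highest liver and the lowest kidney level, 49.3 and 20.8 FPKM. Without A115 and A75, its farthest pair, r was 0.37, and without A115 alone it was 0.43 (exact permutation test p = 0.326, adjusted p = 0.632). Zbtb16 had r = 0.30 and rho = 0.29 (exact permutation tests p = 0.483 and 0.501, adjusted p = 0.870 and 0.892), and 0.61 without A75 and A94. Within conditions, with the condition means taken out, r was 0.70 for Zbtb16, 0.68 for Klf9, 0.47 for Mt1, 0.53 for Mt2 and −0.46 for Fkbp5. It was −0.44 for Errfi1, −0.30 for Hsd11b1, −0.09 for Klf15 and −0.04 for Tsc22d3. Without A115 these values were 0.77 for Zbtb16, 0.19 for Klf9, 0.81 for Mt1, 0.76 for Mt2 and 0.89 for Fkbp5. They were then 0.050 for Errfi1, −0.097 for Hsd11b1, 0.67 for Klf15 and 0.71 for Tsc22d3.

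**Figure D5:**
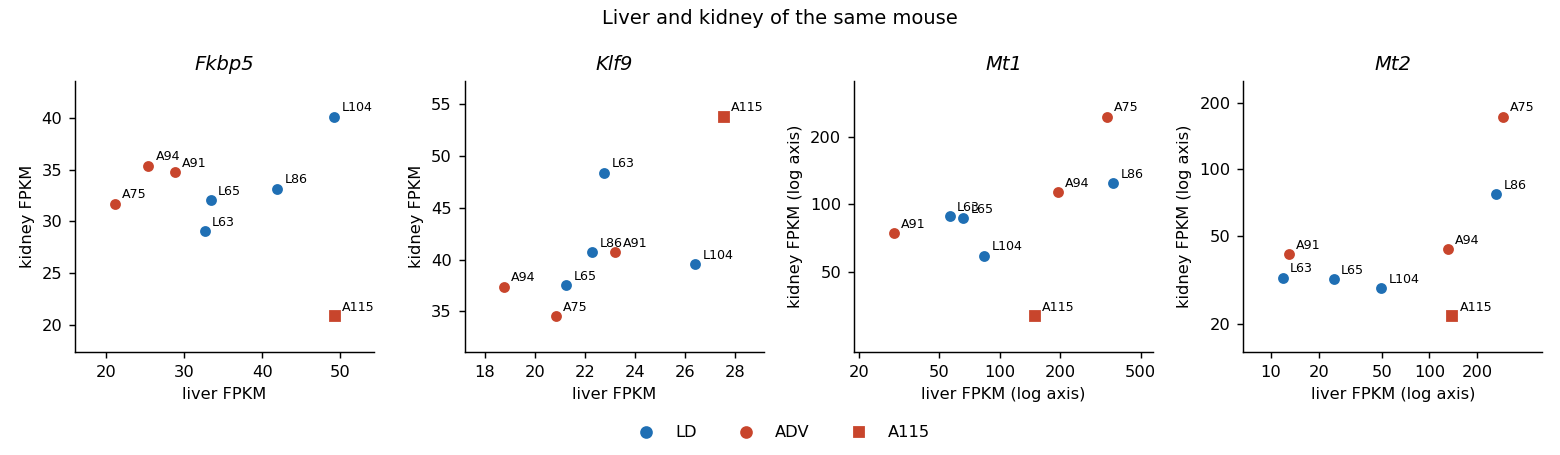
Kidney against liver FPKM of the same mouse for Fkbp5, Klf9, Mt1 and Mt2 (log axes for Mt1 and Mt2), with 4 LD mice in blue and 4 ADV mice in red. A115 (square) is the lowest kidney for Fkbp5, Mt1 and Mt2 and the highest in both organs for Klf9, and A75 and L86 are at the upper right for Mt1 and Mt2.

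The members moved with each other to different degrees over the 16 libraries, taken on the log2 scale with the mean of each organ removed. These correlations are a description, since the libraries share mice and scaling. Mt2 was the gene closest to Mt1 among 12318, with r = 0.94, followed by Nol4l (0.89), Zdhhc14 (0.84) and Stard13 (0.84). Closest to Fkbp5 were Acot2 (0.88), Ankrd33b (0.87), Prickle1 (0.85), Rreb1 (0.83) and Hnf4a (0.83), and Zbtb16 had r = 0.65 with it. None of those 5 was among the 5 closest with A115 left out, which were Bcl2l13 (0.91), Naa60 (0.90), Gid4 (0.89), Mapk14 (0.88) and Zbtb16. Over these 14 libraries Zbtb16 ranked 5 of the 12318 genes for Fkbp5, at r = 0.87, and Fkbp5 ranked 2 for Zbtb16. Closest to Klf9 were Atl2 (0.86), 1110008L16Rik (0.83), Cpox (0.83), Zfp292 (0.82) and Atp13a3 (0.82), and no other member was among them. With A115 left out, Atl2 stayed among the 5 closest to Klf9, and Mt2 and Nol4l among those to Mt1.

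The genes that bind, regenerate or inactivate the hormone were measured beside the members. Nr3c1, the glucocorticoid receptor, was 13.3 to 16.6 FPKM in the 8 livers and 14.1 to 23.3 FPKM in the 8 kidneys, with log2 fold changes of 0.02 (SE 0.10) and −0.16 (SE 0.19). Hsd11b2, which inactivates corticosterone in the collecting duct, was at 0 in 6 of 8 livers. It was 37.3 to 65.2 FPKM in the LD kidneys and 48.8 to 55.8 FPKM in A75, A91 and A94, but 7.60 FPKM in A115. Of the 17 genes for the receptor and hormone handling, 16 were tested in each organ and 0 passed by limma in either direction, 13 being negative in the liver and 15 in the kidney, with a median log2 fold change of −0.18 and −0.30 beside 0.10 and −0.02 for all genes. Without A115, 12 were negative in the kidney, with a median of −0.18 beside 0.20 for all genes. The lowest p among them went to Hspa8, a heat shock chaperone of the receptor (−0.42 in the liver, unadjusted p = 0.0196 by limma), and Ncor1, a corepressor (−0.46 in the kidney, unadjusted p = 0.0408 by limma), and on the higher side to Nr3c2, the mineralocorticoid receptor (0.31 in the liver), and H6pd, which supplies the cofactor of Hsd11b1 (0.02 in the kidney).

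Of the other known glucocorticoid targets, 0 of 26 tested genes passed the threshold by limma in the liver. At an unadjusted p under 0.05, 4 were higher and 5 lower, where 11.8% of all genes passed, and their median was −0.18 beside 0.10 for all genes. Il6ra, the interleukin 6 receptor, was 15.2 to 19.6 FPKM in the LD and 10.4 to 12.6 FPKM in the ADV livers, without overlap (log2 change −0.57, SE 0.12, with limma adjusted p = 0.247). Cebpd, a transcription factor of the acute phase response, was 4.00 to 4.65 FPKM and 4.23 to 7.29 FPKM (0.45, SE 0.16, adjusted p = 0.372 by limma). In the kidney Cebpd had a log2 fold change of 1.28 (SE 0.55) and Pck1, the gluconeogenic enzyme PEPCK, one of −0.75 (SE 0.24), and 0 of 25 genes passed by limma. Per1, a clock gene that the receptor also induces, was 5.62 to 7.86 FPKM in the LD and 4.85 to 6.73 FPKM in the ADV livers (−0.27, SE 0.14). In the kidney it was 5.51 to 6.95 FPKM in the LD mice, 8.81, 7.25 and 9.09 FPKM in A75, A91 and A94, and 1.07 FPKM in A115. As for Klf15, 3 ADV kidneys were above the LD range and A115 was below it.

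The ADV mice differed among themselves in the levels of Dbp and Arntl. Each mouse was sampled once, so that a difference in clock phase cannot be told apart from a difference in level. Dbp, a transcription factor driven by the clock, was 8.25 to 28.6 FPKM in the LD livers, 2.40 and 1.33 FPKM in A75 and A115, and 37.8 and 33.7 FPKM in A91 and A94, and in the kidney it was 15.8 to 34.9 FPKM, 12.1 and 5.32 FPKM, and 68.5 and 58.1 FPKM. Arntl, which encodes BMAL1, was high in the livers of A75 and A115 (5.91 and 6.72 FPKM) and low in those of A91 and A94 (1.06 and 0.723 FPKM). The organs were taken within a set span of hours after the last lights-on, and the part of clock phase in the levels of the 9 genes was not tested.

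The remaining lists also held 0 genes past the threshold by limma with all mice. Of the clock genes, Per2 had the lowest p in the liver (log2 fold change −0.56, unadjusted p = 0.0162 by limma) and Cry1 in the kidney (−0.64, unadjusted p = 0.0184 by limma), while Clock in the liver (0.31) and Arntl in the kidney (0.65) had the lowest p in the other direction. The zinc and metal genes, which share the metal response with Mt1 and Mt2, had a median of 0.11 in the liver and −0.22 in the kidney, with Hmox1 (0.47) and Slc39a14 (−0.21) having the lowest p in each direction in the liver and Slc39a4 (0.83) and Gclc (−0.51) in the kidney. The 7 genes summed to 103, 112, 152 and 139 FPKM in the livers of L63, L65, L86 and L104 and to 141.1, 110.4, 140.6 and 130.4 FPKM in those of A75, A91, A94 and A115, the same order within each group as Mt1. In the kidney the orders differed, since these sums were highest in L104 (151.5 FPKM) and A115 (140.1 FPKM), which had the lowest Mt1 of their groups. All 11 acute phase genes were positive in the liver, with a median of 0.74 and 4 at an unadjusted p under 0.05 against 11.8% of all genes, Saa3 (0.72) having the lowest p, and the 5 tested in the kidney were positive too, with a median of 1.25, Fgl1 (0.74) having the lowest p. Of the genes of fasting and feeding, Cpt1a, the entry enzyme of fatty acid oxidation, was 81.7 to 101.7 FPKM in the LD and 52.6 to 66.8 FPKM in the ADV livers (−0.67, SE 0.11, adjusted p = 0.210 by limma), Pnpla3 (0.72) had the lowest p on the other side, and Cyp4a14 (0.61) on the higher side in the kidney.

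Without A115, in a kidney fit added after the values were seen, 4 of 25 other glucocorticoid targets were called higher, against 16.1% of all genes, and 1 lower, against 2.68%, by limma. These shares are near those of all genes, and the median of the targets was 0.23 beside 0.20. Irs2, the insulin receptor substrate (log2 fold change 1.15, adjusted p = 0.0111 by limma), Ddit4, an inhibitor of mTORC1 signalling (1.67, adjusted p = 0.0352), Per1 (0.47, adjusted p = 0.0394) and Igfbp1, a secreted binding protein for insulin-like growth factors (1.23, adjusted p = 0.0476), were higher, and Pck1 (−0.55, adjusted p = 0.0431) was lower. In the other lists, this fit called H6pd (0.60), Srebf1 (1.35) and Fasn (0.67) higher, and Ncor1 (−0.60), Cry1 (−0.76), Per2 (−0.48), Clock (−0.44) and Gclc (−0.78) lower. Of the 7 kidney epithelium markers, Slc34a1 (0.63) and Aqp2 (1.36) were called higher too, and the median of the list was 0.196 beside 0.197 for all genes. All 10 leukocyte markers were positive with a median of 1.02 and all 6 fibroblast and stellate markers with 0.91, without a call. The part of the make-up of the kidney samples in these values was not tested.

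Markers of other cell types were read beside the members. Hepatocyte markers summed to between 57194 and 70883 FPKM in the livers, and the kidney epithelium markers to at most 1.39 FPKM there, with Slc34a1, Slc12a1 and Aqp2 at 0. In the kidneys the hepatocyte markers summed to between 742 and 1099 FPKM, with Cyp2e1 at up to 1057 FPKM. Cps1 was at 0 there, while the other hepatocyte markers were above 0 in every kidney. Adrenal cortex markers were at most 1.17 FPKM in sum in any library, with Cyp11b1 and Cyp11b2 at 0 in the livers, and adipocyte markers were between 3.11 and 26.0 FPKM. All 10 leukocyte markers had positive log2 fold changes in both organs, with sums of 70.05 to 117.9 FPKM in the LD and 106.5 to 266.9 FPKM in the ADV livers, and 55.8 to 165.3 FPKM in the LD and 64.9 to 377.1 FPKM in the ADV kidneys, and A94 was the highest in each organ. The 6 markers of fibroblasts and stellate cells were positive too, with sums of 113.3 to 129.3 FPKM in the LD and 156.6 to 329.1 FPKM in the ADV livers, which did not overlap, and of 46.5 to 80.1 FPKM in the LD and 58.9 to 157.3 FPKM in the ADV kidneys, which did. Their part in the levels of the 9 genes was not tested.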

How the data were processed

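RNA from 8 livers and 8 kidneys of 8 mice was sequenced. The authors trimmed the reads, mapped them to GRCm38/mm10 with STAR (2.5.4b in the submitters' processing notes), dropped reads of low mapping quality and quantified exons of the UCSC canonical genes with HOMER, and deposited FPKM (the headers say RPKM), scaled to the library total alone. The values were whole steps of 0.5 fragment. No read was mapped again, and 0 columns of per-sample values were left unused.

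Genes with a mean above 0.5 RPM (FPKM times exon length) in the organ were tested on log2(FPKM + 0.1) with limma 3.58.1 in R 4.3.3 (eBayes with trend, Benjamini-Hochberg over all genes), a scale that understates changes of low genes. The DESeq2 test of the study was not run. The fragments recovered from the steps were tested with limma-voom as an alternative. Single members were compared over the 70 assignments of 4 of 8 mice. The members and gene lists were chosen with earlier results of these data known. Besides the members, Nr3c1, Per1, Hsd11b2, the genes past the threshold or with the smallest p in each direction, organ and pathway list, and the 5 genes most like Fkbp5, Mt1 and Klf9 were named. Of these, 2 are not reported here. Saa1, Fgg, Dbp and Fkbp5's relation to Zbtb16 were picked after their values were seen. Liver and kidney are paired by the mouse number in the titles. Their deviations from the group means correlated between −0.0242 (A75) and 0.553 (A94). Fits were tested on simulated data with 200 genes shifted by 1.5 (log2). Of these, 115 of 200 were found in the liver with 9 false calls and 110 in the kidney with 3. The simulated noise had an SD per gene pooled over both organs, though the median within-group SD was 0.244 (liver) and 0.443 (kidney). The counts therefore do not show the recovery at either organ's own spread. With all mice, every member changed by less than 1.5 between the conditions. In depth, 1 fragment on 1 kb of exon is 0.0380 to 0.0584 FPKM. The replicates are separate animals.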

Additional observations from a re-analysis of the deposited data

Results flagged for a closer look

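In each group of 4 mice the extreme value was set against its nearest neighbour, and its gap as a share of the group's range was called large above the 95% critical value of Dixon's ratio. Chance alone flags about 1 in 20 groups, and 36 groups were examined. Mt1 in the LD livers was far higher in L86 than in the other mice (366.0 against at most 84.0 FPKM, ratio 0.911). Mt2 was far higher in L86 in the LD livers (263.8 against 49.7 FPKM, ratio 0.850) and in the LD kidneys (77.2 against 32.3 FPKM, ratio 0.932). In the ADV kidneys Mt2 was far higher in A75 (172.8 against 43.6 FPKM, ratio 0.855). Hsd11b1 was far higher in L104 among the LD kidneys (84.6 against 63.4 FPKM, ratio 0.916) and far lower in A115 among the ADV kidneys (39.6 against 82.0 FPKM, ratio 0.901). The 4 flags of Mt1 and Mt2 are not independent, since these genes moved together and L86 and A75 each gave both organs.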

How the results depend on the processing

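With pseudocounts of 0.5 and 1, no filter or one at a mean of 1 FPKM, quantile or median ratio scaling, limma-voom, no trend, the mouse as a replicate block and each mouse left out, 0 of 9 members were called between the conditions in the liver, the kidney or their difference. Of the liver to kidney relations none passed by Pearson's r in the settings run for them, and the rho of Klf9 passed under the median ratio (adjusted p = 0.0411). The replicate block kept the counts at 0, 0 and 0, and at 6 of 9 between the organs. Leaving out A94 and A115 together, and A115 with median ratio scaling, were added after the data were seen. Signs of small changes were not stable, and the cause was not tested beyond the mouse left out. In the liver, Hsd11b1 was −0.037 under the median ratio and −0.090 with A115 also left out, Tsc22d3 −0.033 under the latter and −0.077 without A94 and A115, and Mt1 −0.038 without them. In the kidney, Klf15 was 0.25 and 0.47 and Tsc22d3 0.12 and 0.083 under these settings. Without A94 and A115 the organ difference of the effect was 0.65 for Mt2, and liver minus kidney was −0.11 for Fkbp5, −0.14 for Mt2 and −0.084 for Mt1. Klf9, liver minus kidney, was 0.0042 under the median ratio without A115. The Fkbp5 relation between organs was 0.50 under the median ratio and −0.18 to 0.43 without A94 or A115. Leaving out each mouse, the liver values ran from −0.020 to 0.24 for Hsd11b1, −0.15 to 0.038 for Klf9, −0.16 to 0.0031 for Errfi1 and −0.12 to 1.05 for Mt1, and the kidney values from −0.058 to 0.32 for Hsd11b1, −0.23 to 0.024 for Fkbp5, −0.14 to 0.070 for Klf9, −0.39 to 0.45 for Klf15, −0.20 to 0.80 for Mt2, −0.43 to 0.55 for Mt1 and −0.27 to 0.32 for Tsc22d3. Fkbp5, liver minus kidney, ran from −0.11 to 0.19. Tsc22d3 between the organs was not called without L63, L65, L86, L104, A75 or A115 (adjusted p by limma up to 0.0907). Fkbp5 was called under the median ratio and quantile normalization (0.46) and Mt1 under the median ratio. Over all genes, the calls numbered 1 in the liver (9 without A91, 6 with no filter, 2 without A94 and A115, 0 under quantile normalization or without L65, L104 or A75). That 1 call was lower in the ADV livers, whereas the 1 call with the replicate block was higher. The calls numbered 0 in the kidney (2724 without A115, 2309 with the median ratio too, 672 without A94 and A115, 1 with the replicate block). For the difference between the organs they numbered 0 (1 under either rescaling, and 458, 546 and 921 under those 3 settings without A115). Of 81 member values without a mouse left out, 80 kept their sign and call in the liver, and 81 in the kidney.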
